A study of Mus musculus with 2 samples.

Results

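The 8 genes described here encode the receptors of the insulin family and the proteins that carry their signal inside the cell: Insr, Insrr, Igf1r, Irs1, Irs2, Pik3r1, Akt1 and Akt2. They were taken as a list by symbol from 38924 genes in the deposited quantification of mouse pancreatic islet RNA, by adding up the transcripts of each gene, and all 8 were found. Islets came from male mice, 10 weeks old and fed standard chow, of 2 strains: C57BL/6J (B6), the strain of the reference genome, and CAST/EiJ (CAST), a wild-derived inbred strain. For each strain the islets of 2 mice were pooled, handled in buffer with 16.7 mM glucose, and 250 of them gave 1 RNA library. The design therefore has no replicates, no difference between strains could be tested, and every ratio compares 1 pool with 1 other pool. The list was chosen by gene name and role with the measured strain ratios of these libraries, that of Insr among them, already in view, so the ratios of its members are descriptions.

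Insulin and the insulin-like growth factors act through receptor tyrosine kinases that sit in the membrane as linked dimers. Ligand binding lets the kinase parts phosphorylate each other on an activation loop, and the active receptor then phosphorylates the substrates Irs1 and Irs2. These recruit phosphatidylinositol 3-kinase through its regulatory subunit Pik3r1, and the lipid it makes brings the kinases Akt1 and Akt2 to the membrane, where they are switched on. In islets the same pathway is known to support beta cell growth and survival, with Irs2 as the substrate most often linked to beta cell mass.

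The activation loop shows how close Insr and Igf1r are in sequence and is the stretch on which each is phosphorylated when it is activated. The coding sequences below are from the GENCODE M21 transcripts (GRCm38), read 5′ to 3′ on the gene's strand, with the codons of the 3 regulatory tyrosines in capitals.
Insr (chr8:3159533-3159565, minus strand, exon 19): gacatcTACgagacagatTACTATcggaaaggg
Igf1r (chr7:68214936-68214968, plus strand, exon 19): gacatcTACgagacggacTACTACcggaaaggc
Of these 33 bases, 4 differed between Insr and Igf1r.
The matching loop of the AKT kinases is shown with the codon of its regulatory threonine, the residue that the kinase encoded by Pdpk1 phosphorylates, in capitals.
Akt1 (chr12:112657080-112657112, minus strand, exon 10): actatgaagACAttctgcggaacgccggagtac
Akt2 (chr7:27636123-27636155, plus strand, exon 10): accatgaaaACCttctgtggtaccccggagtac
Here 6 of 33 bases differed.

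Relatives this close can share reads, so the longest stretch of identical coding sequence was found for 3 pairs. It was 32 bases for Akt1 and Akt2 (chr12:112656831-112656862): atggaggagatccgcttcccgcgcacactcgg. The pairs Insr and Igf1r, and Irs1 and Irs2, shared at most 19 and 21 coding bases. Outside the coding part of the GENCODE M21 transcripts, Insr and Igf1r shared a run of 43 bases. Insrr was not compared in this way with Insr or Igf1r. The sources used here do not give the read length. A near-identical copy, at 95% identity or more, was found for Akt2 (the pseudogene Akt2-ps, 18 counts in B6 and 49 in CAST). For Irs1 the search returned Gm9747 (0 and 13 counts), which lies on the opposite strand across 2822 bases of Irs1. The search did not separate strands, so this match can be the shared locus itself and not a separate copy. The search returned no gene for the other 6.

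Library totals were 76600903 expected counts in B6 and 104324631 in CAST, which gave each of the 8 genes between 1485 and 53675 counts. Levels are given as TPM, a gene's share of all transcript molecules on a common scale, which allows for transcript length. The islet identity of both libraries was checked against markers. Each of the 9 beta cell markers was within 2-fold between the libraries. Their summed level was 490166 TPM in B6 and 557435 TPM in CAST, most of it from Ins2 (404421 and 477729 TPM). The median log2 ratio of CAST over B6 of the 9 was 0.11 on scaled counts and -0.24 by TPM with 1 added. Of 6 alpha cell markers 5 had lower scaled counts in CAST (summed level 65930 and 39337 TPM), all 10 acinar markers were at least 2-fold higher in CAST on scaled counts (6762 and 20066 TPM), and so were 5 of 8 fibroblast markers (26.6 and 50.7 TPM). By TPM, 8 of the 10 acinar and 3 of the 8 fibroblast markers were at least 2-fold higher in CAST. Of the 6 alpha cell markers, 4 were at least 2-fold lower in CAST by TPM. In 2 bulk samples, fewer cells of a type and less RNA per cell cannot be told apart.

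The most abundant of the 8 in both libraries was Insrr, the insulin receptor-related receptor, which does not bind insulin and is known as a sensor of alkaline pH. Insrr (ENSMUSG00000005640, chromosome 3, 87796951 to 87816101) stood at 175 TPM in B6 and 89.8 TPM in CAST. Of the genes detected at 1 TPM or more, 97.4% lay below it in B6 and 95.2% in CAST. Both receptors with known peptide ligands were far lower. Insr, the insulin receptor gene (ENSMUSG00000005534, chromosome 8, 3122061 to 3279617), stood at 9.64 TPM in B6 and 2.88 TPM in CAST. Igf1r, which encodes the receptor for insulin-like growth factor 1 (ENSMUSG00000005533, chromosome 7, 67952827 to 68233668), stood at 5.61 and 5.18 TPM.

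**Figure D1:**
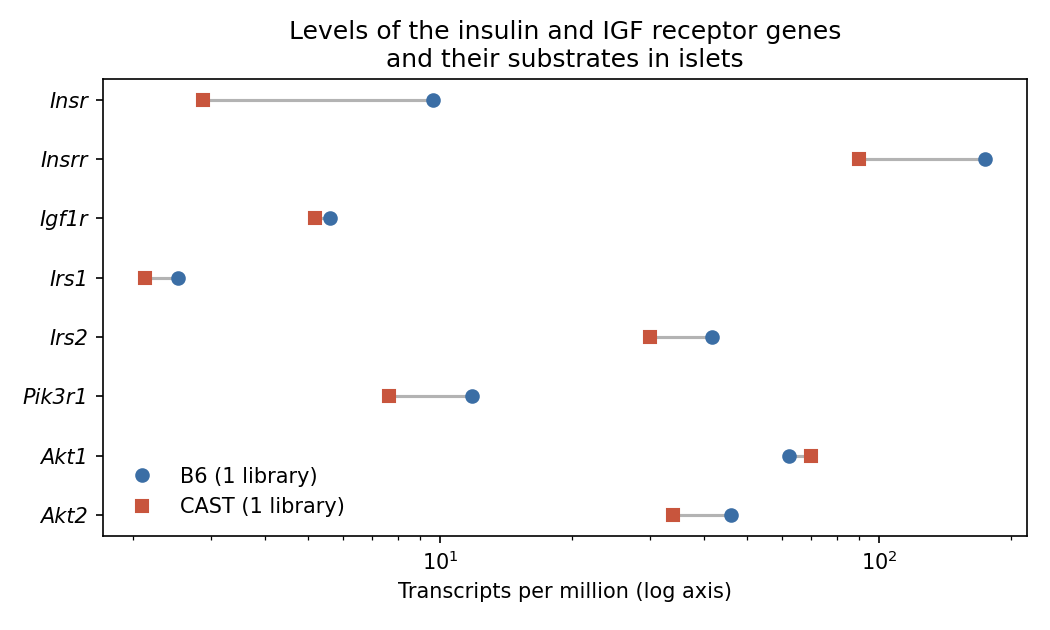
Level of each of the 8 genes in the B6 library (blue circles) and the CAST library (red squares), in TPM on a log axis, with 1 library per strain and no error bars. Insrr is the highest in both at 175 and 89.8 TPM, and Insr lies above Igf1r in B6 (9.64 and 5.61 TPM) but below it in CAST (2.88 and 5.18 TPM).

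Per transcript length, the order of Insr and Igf1r differed between the libraries. These comparisons within a library do not depend on how the libraries are scaled to each other, but they do depend on the transcript lengths used. In B6 there were 1.72 Insr transcripts for each Igf1r transcript (95% counting interval 1.62 to 1.82), and in CAST 0.555 (0.525 to 0.587). By counts Insr was above Igf1r in both libraries, at 3.61 to 1 in B6 and 1.17 to 1 in CAST, so the exchanged order in CAST rests on dividing by the lengths of the deposited quantification, 9355 bases for Insr and 4489 for Igf1r. Dividing the same counts by the GENCODE M21 lengths gave 4.41 and 1.42, an alternative chosen after seeing the data. Those counts were collected on the 4489-base Igf1r model, so reads on the bases that GENCODE M21 adds are missing from it. What a quantification on the longer model would give was not measured. The change between libraries does not use lengths: the Insr to Igf1r ratio of counts in CAST was 0.323 of that in B6. Its 95% counting interval, by a normal approximation, was 0.299 to 0.350. Insrr outnumbered Insr by 18.1 to 1 in B6 (17.6 to 18.6) and by 31.2 to 1 in CAST (30.0 to 32.5), and it outnumbered Igf1r by 31.1 to 1 and 17.3 to 1. The intervals hold no more than counting error, because reads are not separate molecules and mice were not measured singly.

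Insr had 5788 counts in B6 and 2683 in CAST, although the CAST library was the deeper one. With TMM scaling, which sets the libraries level over the bulk of genes, the log2 ratio of CAST over B6 was -1.40 (-1.46 to -1.33), or 2.64-fold higher in B6. By the TPM values themselves it was 3.35-fold higher in B6. Log2 ratios of TPM, here and below, are of TPM with 1 added. Of the 14768 genes tested, those whose counts over both libraries came to at least 100, 3.27% had a lower ratio than Insr. Insr alone among the 8 differed by 2-fold or more. Over all tested genes 13.2% did so in either direction, and 5.99% were 2-fold or more higher in B6 and 7.18% in CAST. So 1 of 8 (12.5%) is near the background. With 500 or more counts required, which all 8 passed, 1047 of 12156 genes were 2-fold apart. That 13.2% comprised 1060 genes higher in CAST and 885 higher in B6, and 54.5% higher in CAST became 44.1% with scaling by total counts and 38.6% by TPM with 1 added. Under the 10 settings that gave Insr a ratio, of which the TPM one has 1 added, it was 2.63-fold to 2.94-fold higher in B6. The lower alpha cell markers and higher acinar and fibroblast markers of the CAST library move with this ratio, and their part in it was not tested. CAST reads carry strain variants against the B6 reference, and their effect on any ratio here was not tested.

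Insrr had 53675 counts in B6 and 43198 in CAST, a log2 ratio of -0.60 (-0.62 to -0.58). It was 1.52-fold higher in B6 on scaled counts and 1.95-fold by TPM. It lies within the span of Pear1, a gene on the opposite strand with 460 and 567 counts, and the sources used here give no strand setting. Igf1r did not follow the other receptors, with 1602 counts in B6 and 2297 in CAST. Its log2 ratio was 0.23 (0.14 to 0.32) with TMM scaling and -0.10 by TPM with 1 added, so its direction depends on the scaling. Relative to the median of all genes, which was 0.02 with TMM and -0.26 by TPM with 1 added, Igf1r lay 0.17 to 0.21 higher and Insr 1.19 to 1.44 lower under all 10 settings.

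**Figure D2:**
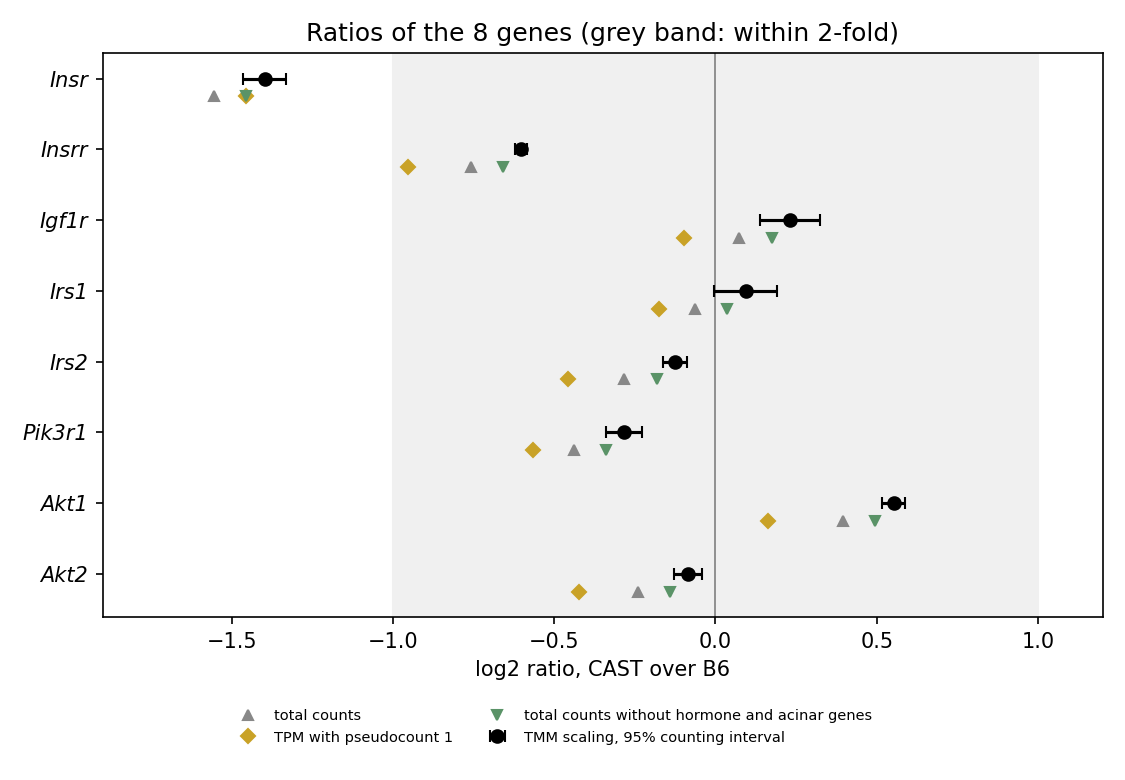
Log2 ratio of CAST over B6 for each of the 8 genes: black points with 95% counting intervals use TMM scaling, and coloured markers use total counts, TPM with 1 added, or totals without hormone and acinar genes. Only Insr, at -1.40, lies outside the grey 2-fold band, and the directions of Igf1r (0.23) and Irs1 (0.09) change with the scaling.

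Irs2 was the main insulin receptor substrate gene of both libraries. Irs2 (ENSMUSG00000038894, chromosome 8, 10984681 to 11008458) stood at 41.7 TPM in B6 and 30.1 TPM in CAST, from 10645 and 11922 counts. Irs1 (ENSMUSG00000055980, chromosome 1, 82233101 to 82291416) stood at 2.53 and 2.12 TPM, from 1485 and 1936 counts. It was the lowest of the 8 in both libraries, by TPM and by counts. There were 16.5 Irs2 transcripts for each Irs1 transcript in B6 (15.6 to 17.4) and 14.2 in CAST (13.5 to 14.9). These ratios rest on the lengths of the deposited quantification, 4024 bases for Irs2 and 9144 for Irs1. GENCODE M21 has 6323 bases for Irs2. Reads on its further bases are not in the deposited counts, so the ratios under that model were not measured. The place of Irs1 below Igf1r was not recalculated with GENCODE M21 lengths, in which Igf1r-201 has 11409 bases and not 4489. The log2 ratio of Irs2 was -0.13 (-0.16 to -0.09). That of Irs1 was 0.09, its counting interval of -0.0047 to 0.19 included 0, and it was below 0 with total counts and by TPM with 1 added. The other substrate genes were near absent, and were picked out after their values were seen: Irs3 had 14 and 3 counts, and Irs4 17 and 32. Irs2 overlaps a transcript on the opposite strand, 9530052E02Rik, which had 23 and 4 counts.

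Pik3r1, the regulatory subunit gene of phosphatidylinositol 3-kinase (ENSMUSG00000041417, chromosome 13, 101680563 to 101768217), stood at 11.8 TPM in B6 and 7.66 TPM in CAST. Its counts were nearly equal, 5234 and 5255, which with the deeper CAST library gave a log2 ratio of -0.28 (-0.34 to -0.23). Set against its upstream receptor, there were 1.23 Pik3r1 transcripts for each Insr transcript in B6 and 2.66 in CAST.

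By TPM the AKT genes came next to Insrr in abundance, and they moved apart between the libraries. Akt1 (ENSMUSG00000001729, chromosome 12, 112653821 to 112674884) stood at 62.4 TPM in B6 and 70.0 TPM in CAST, and was the only gene of the 8 with the higher TPM in CAST. It had 10040 and 17988 counts, a log2 ratio of 0.55 (0.52 to 0.59), and was 1.12-fold to 1.47-fold higher in CAST under all 10 settings. Akt2 (ENSMUSG00000004056, chromosome 7, 27591552 to 27640826) stood at 46.0 and 34.0 TPM, from 8013 and 9232 counts, a log2 ratio of -0.08 (-0.13 to -0.04). There were 1.36 Akt1 transcripts for each Akt2 transcript in B6 (1.32 to 1.40) and 2.06 in CAST (2.01 to 2.11).

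By TPM, in B6 the order of levels was Insrr, Akt1, Akt2, Irs2, Pik3r1, Insr, Igf1r and Irs1, and in CAST the same with Insr and Igf1r exchanged. By counts, without lengths, the order was not the same. Insr was above Igf1r in both libraries, and so was Irs2 (10645 and 11922 counts) above Akt2 (8013 and 9232). In B6 Irs2 was also above Akt1 (10040 counts), and Insr (5788) above Pik3r1 (5234). The closest neighbours by TPM were Akt2 and Irs2, at 1.10 to 1 in B6 (1.07 to 1.14) and 1.13 to 1 in CAST (1.10 to 1.16). Insrr stood 2.80 to 1 over Akt1 in B6 and 1.28 to 1 in CAST. The counting intervals of all pairs neighbouring by TPM excluded 1, but these intervals take the deposited lengths as given. The spread between mice, which could be wider, was not measured. The median log2 ratio of the 8 was -0.11, beside 0.02 for all tested genes.

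The transcript shares of Insr were the same in both libraries. The annotation lists 2 Insr transcripts, and Insr-201, the coding one, took 100% of the gene in B6 and in CAST. Insr-202, annotated as a retained intron, had 0 counts in each. Read as a plain count of 0 with 3 counts allowed, this leaves up to 0.0518% of the gene's counts in B6 and 0.112% in CAST. That limit is in counts and not molecules, and it does not cover error in dividing reads between transcripts. The insulin receptor is known for a pair of splice forms that differ by a short alternative exon of 36 bases, near the end of the insulin-binding chain. Insr-201 has 21 exons, and 0 of them are 36 bases long, so it is the form without that exon. The junction where the exon would lie joins exon 10 to exon 11, just before the site at which the receptor precursor is cut into its chains, and is shown because reads across it are what would tell the forms apart. The codons of the cleavage site are in capitals.
Insr end of exon 10 (chr8:3184951-3184974, minus strand): gcacaacgtggtttttgtccccag
Insr start of exon 11 (chr8:3174861-3174888, minus strand): gccatccCGAAAGCGAAGAtcccttgaa
With 1 coding model, the deposited values hold no split between the splice forms, and a difference between strains in that split was not measurable.

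The length of the model behind each deposited value could be read back from the data. In these files the count divided by the molecule fraction is a straight line in transcript length. Of 1879 well-counted transcripts in B6 and 2363 in CAST, 63.3% and 64.0% fell within 0.5 bases of that line at their GENCODE M21 length. By this reading Insr-201 was quantified as 9355 bases, its length in GENCODE M21, where the 36-base exon is lacking. Insrr-201 (5102 bases), Irs1-201 (9144), Akt1-201 (2690) and Akt2-201 (2923) also had their GENCODE M21 lengths. Igf1r-201 was quantified as 4489 bases and has 11409 in GENCODE M21, of which 4107 are coding. Irs2-201 was quantified as 4024 bases against 6323, with 3963 coding, and Pik3r1-202 as 6915 against 7113. If these shorter models hold the whole coding part, the Igf1r and Irs2 levels rest almost wholly on coding sequence, whereas those of Insr and Irs1 rest on long models with 4116 coding bases of 9355 and 3693 of 9144. Coverage along a transcript was not tested, so levels of genes with such different models are less comparable than ratios of 1 gene between strains.

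**Figure D3:**
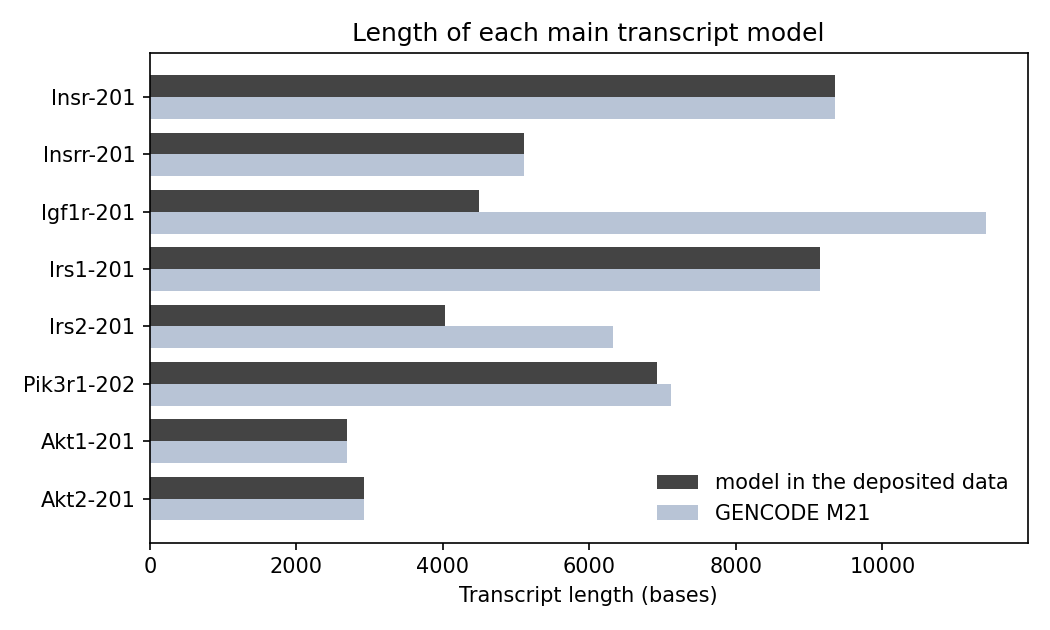
Length in bases of the main transcript of each gene as used in the deposited quantification (dark bars, the same in both libraries) and in GENCODE M21 (light bars). The bars differ for Igf1r-201 (4489 and 11409), Irs2-201 (4024 and 6323) and Pik3r1-202 (6915 and 7113) and are equal for the other 5.

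Most of the other members also kept their main transcript. Igf1r, Irs1 and Irs2 each have 1 transcript in the files. Pik3r1-202 held 99.7% of its gene in B6 and 98.8% in CAST. Of the 4 Insrr transcripts, Insrr-201, which is coding, held 89.3% and 90.7%, and Insrr-203, annotated as a retained intron, 10.2% and 9.10%. Akt1 has 9 transcripts, and Akt1-201 held 93.3% in B6 and 97.1% in CAST.

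Akt2 was the most divided, with 14 transcripts, 4 of them at 5% or more in either library. Akt2-201 held 54.9% and 53.9%, Akt2-214 19.8% and 20.4%, and Akt2-205 9.73% and 9.07%. The retained intron transcript Akt2-208 held 7.25% in B6 and 3.78% in CAST. The sources used here give no uncertainty for the division of reads, so these shares carry no error.

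**Figure D4:**
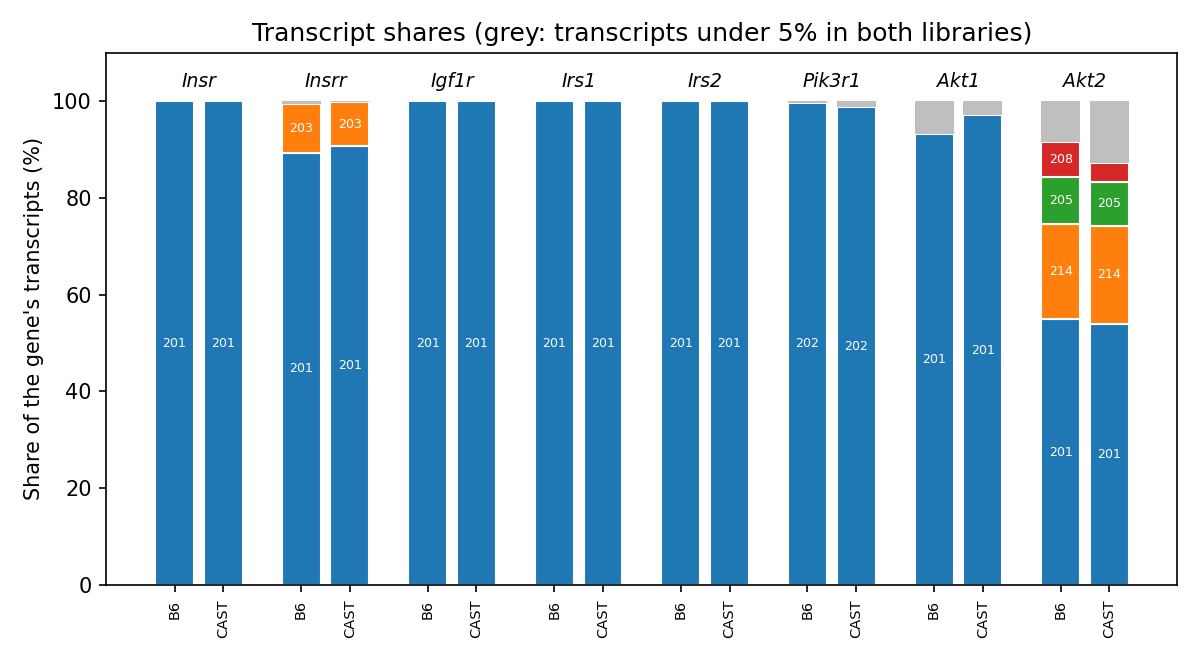
Share of each gene's transcript molecules, in percent, by transcript number, in the B6 and CAST libraries; grey is the sum of transcripts under 5% in both. Insr is a single block at 100% in both libraries, and Akt2 is split among 4 named transcripts led by Akt2-201 at 54.9% and 53.9%.

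Few other genes of the pathway were 2-fold apart. Of 87 further insulin and IGF pathway genes, 81 reached 100 counts over both libraries, and 79 of these were within 2-fold. The 2 outside (2.47%, beside 13.2% of all tested genes) were Igf1 and Igfbp5. With 500 or more counts required it was 1 of 79 pathway genes, beside 1047 of 12156 genes. The median log2 ratio of the 81 was -0.06.

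Among the ligand genes, Igf1, the growth factor that binds Igf1r, had 78 counts in B6 and 201 in CAST, a log2 ratio of 1.07 (0.69 to 1.47), at a level of only 0.577 and 0.962 TPM. It fell under 2-fold with total counts and by TPM, with 1 added or not. Fibroblast markers, given above, moved in the same direction, and their part in the Igf1 ratio was not tested. Igf2, the growth factor gene expressed from the paternal allele, had 384 and 312 counts (log2 -0.59, -0.81 to -0.37). Among genes of binding and clearance, Igfbp5, which encodes a secreted IGF binding protein, had 2837 and 1381 counts, 2.51-fold higher in B6 (log2 -1.33, -1.42 to -1.23). Igfbp4, another of these proteins, had 719 and 1552 counts and was 1.77-fold higher in CAST.

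The intracellular groups were within 2-fold throughout with TMM scaling of all transcripts. The 12 tested adaptor genes ranged from Grb10, an inhibitory adaptor of these receptors (log2 -0.64), to Grb2, the adaptor to RAS (0.14). The 7 further genes of the PI3K step had a median of -0.07, and the lowest was Pik3cd (-0.29), a catalytic subunit gene. The 10 phosphatase genes ranged from Phlpp2 (-0.75), which removes phosphate from AKT, to Ptpn2 (0.29), a tyrosine phosphatase. The 16 TSC and mTOR genes ranged from Eif4ebp1 (-0.98), an inhibitor of translation, to Eif4e (0.27), the cap-binding protein it blocks.

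Eif4ebp1 had 1597 and 991 counts and passed 2-fold, higher in B6, with total counts (log2 -1.13) and by TPM with 1 added (-1.25). It also did so with totals without hormone and acinar genes (-1.03) and with TMM scaling of protein coding transcripts only (-1.01). Socs2, a suppressor of cytokine signalling, also passed 2-fold in that direction by TPM with 1 added (-1.14). By the TPM values themselves, Grb10 (15.9 and 7.94 TPM), Phlpp2 (2.09-fold), Socs2 (2.28-fold) and Eif4ebp1 (2.51-fold) were each at least 2-fold higher in B6. The 9 AKT target genes ranged from the forkhead factor gene Foxo6 (-0.48) to Tbc1d4 (0.79), a regulator of glucose transporter traffic with 1017 and 2146 counts. All 5 feedback genes lay below 0 with TMM scaling, with a median of -0.42, beside 0.02 for all tested genes. Socs1 (196 and 216 counts) alone of the 5 had a counting interval that included 0 (-0.43 to 0.14). The 5 ranged from Socs2 (-0.76), with 4238 and 3058 counts and a near-identical copy, Gm9847, with 0 and 99, to Pde3b (-0.11), a phosphodiesterase. The 11 RAS and MAPK genes had a median of 0.18, which was -0.13 by TPM with 1 added, and the highest was Map2k1 (0.44), a kinase of the cascade.

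**Figure D5:**
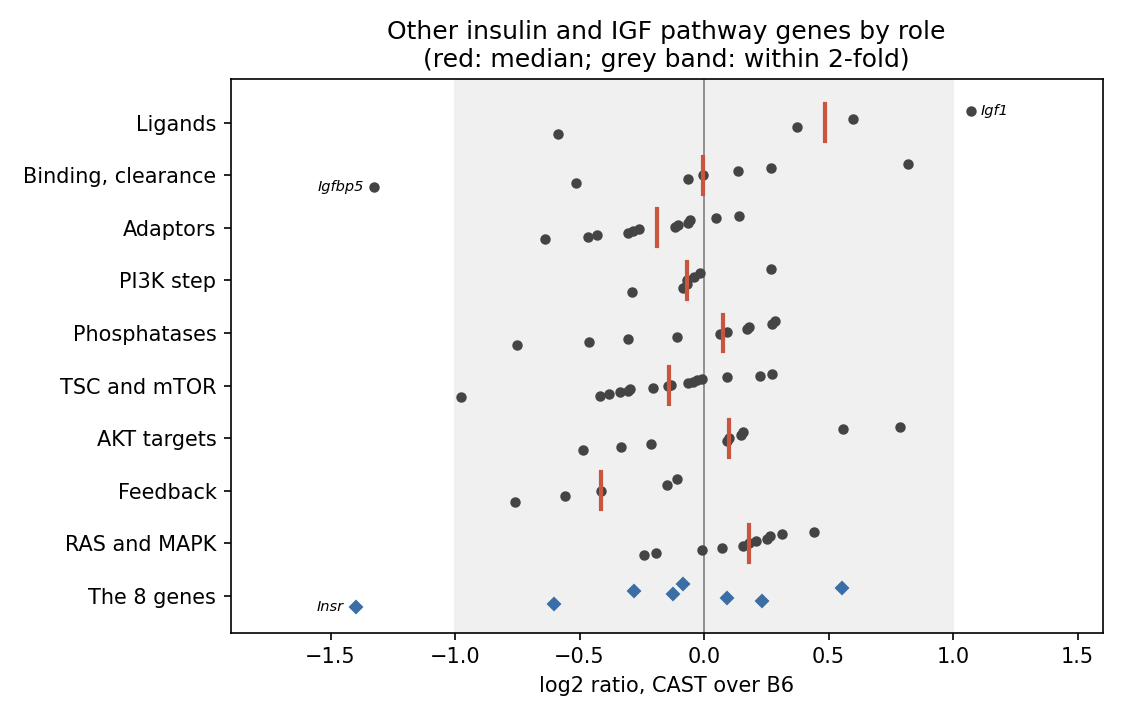
Log2 ratio of CAST over B6 for the 81 tested pathway genes by role (grey points, red line at the median of each role) and for the 8 genes (blue diamonds), with genes outside the 2-fold band named. Igfbp5 (-1.33), Igf1 (1.07) and Insr (-1.40) lie outside the grey 2-fold band.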

How the data were processed

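Both libraries were quantified by the authors with RSEM on GRCm38, per the submitters' processing notes. The deposited files hold, per transcript, an expected count and the fraction of all transcript molecules, as the values themselves show: the deposited fraction sums to 1 per library and gives TPM when rescaled. The sources used here give no aligner, annotation release or strand setting. Gene values are sums of expected counts, rounded, and 37607 of 38924 gene IDs were matched to GENCODE M21. Ratios use TMM factors (edgeR 4.0.16, R 4.3.3) with 0.5 added to each count, where a gene reached 100 counts over both libraries, with exact Clopper-Pearson 95% intervals that cover counting error only. A call means 2-fold or more. Near-identical copies were sought with minimap2 2.31 (95% identity, 200 bases, 50% of the shorter transcript). The ratio code was tested on simulated data. Scripts ran in Python 3.11.15 with pandas 2.3.3, scipy 1.17.1, numpy 2.4.6 and matplotlib 3.10.9.

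The members, lists and naming rule were chosen with earlier results of these data known. Named were the 8 genes, their transcripts with 5% or more of the gene, and per pathway role the highest and lowest ratio and every gene 2-fold apart; some items the rule names are not reported here. Alternatives were other scalings (DESeq2 1.42.0 size factors among them), pseudocounts, filters, thinning, coding transcripts only and summed copies. Marker lists not quoted in the report gave these numbers at least 2-fold higher in CAST on scaled counts: duct 2 of 5 tested, endothelial 1 of 7, leukocyte 0 of 6, delta and PP cell 0 of 4. In these lists 0 were 2-fold or more higher in B6 on scaled counts. By TPM, 1 duct, 2 leukocyte and 2 delta and PP cell markers were, the last being Sst (2.38-fold) and Hhex (2.15-fold). In the other direction 1 duct marker was at least 2-fold higher in CAST by TPM. Of liver, muscle and fat markers 2 were tested, of which Fabp4 was 2-fold or more higher in B6, and Myh4 and Adipoq had 0 counts in both.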

Additional observations from a re-analysis of the deposited data

How the results depend on the processing

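Of the 8 genes, Insr alone was 2-fold apart under each alternative at that threshold. At a threshold of 1.5-fold there were 2 of the 8 (Insr and Insrr), 10 of 81 other pathway genes and 3726 of 14768 tested genes. The share of the 8 was then near that of all tested genes. With 500 or more counts required, 1 of 79 pathway genes and 1047 of 12156 genes were 2-fold apart. Without a filter 6883 of 22780 genes were, and by TPM with 1 added 1200 of 14768. Adding near-identical copies, with Gm9747 treated as one for Irs1, changed no call among the 8 or the pathway genes. That alternative was chosen after seeing the data. Directions of Igf1r and Irs1 depended on the scaling: Igf1r was above 0 in 9 of 10 settings and Irs1 in 8 of 10, and the other 6 kept theirs. The share of Insr-201 was 100% by counts and among coding transcripts too. No paired analysis was possible because each strain had 1 library, and for the same reason no library could be left out. Depth limits Irs1, whose counting interval at 1485 and 1936 counts included both directions, Igf1, with 78 counts in B6, and Irs3 and Irs4.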
